A study of Homo sapiens with 4 samples.

Results

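The transcripts described here are the genes found in an osimertinib-resistant lung cancer line and not, or almost not, in its parent. PC9 is an established human lung adenocarcinoma line whose growth depends on a mutant EGFR, and PC9OR is a derivative of it that resists osimertinib, a kinase inhibitor of mutant EGFR. Total RNA from 2 biological replicates of each line was sequenced, with PC9 labelled as the control phenotype and PC9OR as the resistant one. Both lines carry the genotype label WT, both were kept in the same serum-containing medium, and the labels give no drug in the medium. PC9OR is a single resistant line, so what belongs to resistance and what belongs to this line cannot be told apart. A gene was taken when it reached 0.5 CPM (expected counts scaled to the same total in every library) in both PC9OR libraries and stayed under 0.1 CPM in both PC9 libraries. The rule found 59 of the 16813 genes listed in any library. Since the values of all 4 libraries chose the members, their difference between the lines is a description and carries no test. For scale, 6.13% of the 13148 genes that could be tested between the lines were called higher in PC9OR, by more than 2-fold and an edgeR adjusted p under 0.05. The choice of members used the same contrast, so nothing is read from this share.

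A gene that moves from near 0 to a measurable level differs from one that changes within its usual range. Many genes are kept silent in a given cell type by a closed promoter, by methylation of CpG dinucleotides or by the absence of an activating factor, and genes with CpG-poor promoters are known for tissue-restricted use. In bulk RNA a low level may come from every cell or from a few cells, and fewer cells and less RNA per cell cannot be told apart.

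The libraries held 23201307 and 29062064 expected counts in PC9, and 31948974 and 32203998 in PC9OR. A floor of 3 counts was worth 0.129 and 0.103 CPM in the PC9 libraries, and 0.0939 and 0.0932 CPM in the PC9OR libraries, so the upper cutoff of 0.1 CPM lay under 3 counts in both PC9 libraries. Of the 10 epithelial markers, 9 were listed and 7 were at 0.5 CPM or more in all 4 libraries, while the lung lineage markers NKX2-1 and NAPSA reached at most 0.373 and 0.344 CPM and SFTPB was listed nowhere. None of the markers for epithelium, fibroblasts, endothelium, leukocytes, neurons or neuroendocrine cells was a member. Summed fibroblast markers were at 1.48 to 1.80 CPM in all libraries. Of 6 leukocyte markers 4 were listed, and their sum was 17.7 and 13.9 CPM in PC9 and 7.31 and 6.83 CPM in PC9OR, most of it CD68 (6.28 to 15.7 CPM), with PTPRC and CD3E at or near 0. Of 5 endothelial markers 4 were listed, with a sum of 37.4 and 23.8 CPM in PC9 and 5.10 and 5.30 CPM in PC9OR, most of it CDH5, and KDR at 0. Of 4 neural markers 3 were listed, with a sum of 12.9 and 11.4 CPM in PC9 and 0.997 and 0.580 CPM in PC9OR, most of it MAP2. The leukocyte, endothelial and neural sums were lower in PC9OR. The epithelial sum was higher, at 12786 and 12454 CPM against 6976 and 7326 CPM in PC9, although CDH1 and EGFR within it were lower. The part of these markers in the values of the members was not tested.

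The members were weakly expressed genes. Together they held 1.46 and 1.07 CPM in PC9, and 130 and 124 CPM in PC9OR. Only 6 members had a mean of 5 CPM or more in PC9OR, 24 lay from 1 to under 5 CPM, and 29 were under 1 CPM. Per length, their median was 0.345 FPKM (counts scaled by transcript length and library size) in PC9OR, against 7.49 FPKM for the 11685 genes at 0.5 CPM or more in all 4 libraries. In PC9, 29 members were listed in neither library and are given as 0, 21 in 1 library and 9 in both, always at under 3 counts. For comparison, the mirrored rule found 84 genes detected only in PC9.

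**Figure D1:**
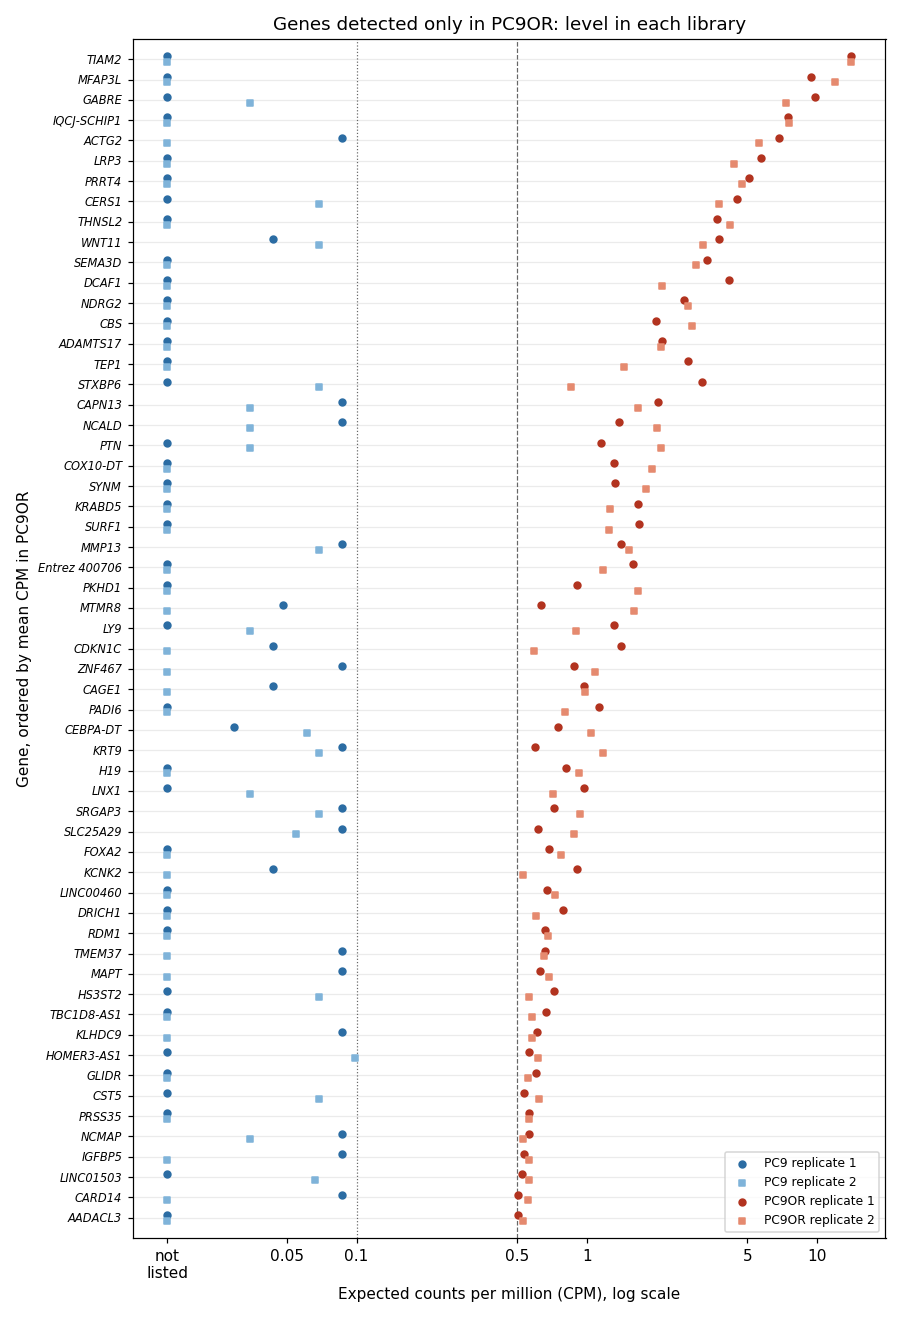
Level of 58 of the 59 members in each library, in CPM on a log axis, ordered by mean level in PC9OR. Points are single libraries, dashed and dotted lines mark the cutoffs of 0.5 and 0.1 CPM, and TIAM2 stands at the top with 14.1 CPM in both PC9OR libraries while most members lie under 2 CPM.

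The rule takes genes at the edge of detection, and the same cutoffs also separated replicates of 1 line. In PC9, 106 genes reached 0.5 CPM in replicate 1 and stayed under 0.1 CPM in replicate 2, and 78 did the opposite. In PC9OR these counts were 53 and 59. Of the 1683 genes under 0.1 CPM in both PC9 libraries and listed in PC9OR, 59 reached 0.5 CPM in both PC9OR libraries and another 59 in just 1 of them. Between the PC9OR libraries the members had a median ratio of the higher to the lower value of 1.21, 9 differed by more than 1.5-fold, and 29 of the 59 were higher in replicate 1. The rule required 0.5 CPM in both libraries, so these ratios describe the members and are no measure of agreement.

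**Figure D2:**
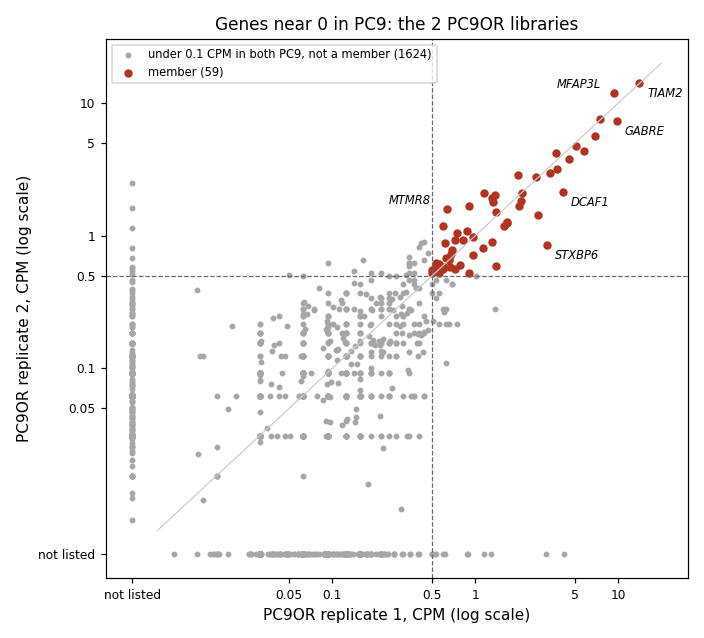
CPM in PC9OR replicate 1 against replicate 2, on log axes, for the 1683 genes under 0.1 CPM in both PC9 libraries and listed in PC9OR. Red points are the 59 members above both dashed cutoffs of 0.5 CPM, grey points are the other genes, the diagonal marks equal levels, and STXBP6 lies farthest from it among the members.

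The members nearest to the cutoffs show how narrow the choice was. AADACL3, an arylacetamide deacetylase-like gene, was the weakest member, with 16 and 17 counts (0.501 and 0.528 CPM) in PC9OR and none in PC9. CARD14, a scaffold of NF-kB signalling in keratinocytes, had 0.0862 and 0 CPM in PC9 and 0.501 and 0.553 CPM in PC9OR. LINC01503, a long non-coding RNA, had 0.522 and 0.559 CPM in PC9OR. Just outside lay PCDHGA11, a protocadherin, which had 1.01 and 0.497 CPM in PC9OR, and FOXJ1, a factor of ciliated cells, which had 0.469 and 0.745 CPM. BTG2 missed the same cutoff with 0.626 and 0.466 CPM. On the PC9 side, HOMER3-AS1 was taken with 0.0988 CPM in replicate 2, while ATP2A3 was left out with 0.103 CPM there, TMT1A with 0.0862 and 0.103 CPM, and EPIC1 with 0.112 and 0.105 CPM.

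Reads that fit several genes were divided by the authors' software, so an expected count need not be whole. In both PC9OR libraries, 29 members had whole counts within 0.005, and 30 had a fractional count in at least 1. Among the 58 members with a GENCODE transcript, 50 had under 5% of their 50-base words in transcripts of another gene, 7 shared from 5% to under 50%, and CERS1 shared 67.2%, all with GDF1, a gene on the same transcript. GDF1 was at 0 in PC9 and at 0.308 and 0.187 CPM in PC9OR. The other high shares were 41.8% in IQCJ-SCHIP1, 34.8% in CBS, 29.7% in GLIDR and 12.03% in DRICH1, and values of these genes depend on how reads were divided.

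Promoters of the members are shown first, because they give a feature that the rule did not use. The RefSeq promoter table (GRCh38.p14, 250 bases before to 50 after the start of a gene) held 42 of the 59 members. Their median observed over expected CpG ratio was 0.669, against 0.848 for the 9655 genes with a promoter and at least 0.5 CPM in all 4 libraries, and 0.539 for 63 genes detected only in PC9. Of the 42 promoters, 20 (47.6%) had a ratio under 0.6, compared with 15.4% of the genes detected in all 4 libraries, 26.2% of all 13473 listed genes with a promoter, and 60.3% of the PC9-only genes. The median level in PC9OR was 1.11 CPM for the 59 members and 32.7 CPM for the 11685 genes detected in all 4 libraries. No set matched in level was compared. Members fell at both ends of the CpG range. CERS1 and CBS had 50 CpG dinucleotides each in 300 bases, and DRICH1 had 1.

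The 250 bases before the start are printed for the 2 strongest members, for NDRG2 and for H19, with each CpG in capitals, to show a CpG-dense and a CpG-poor promoter side by side. Their positions are those of the single exact match in GRCh37. TIAM2 lies at chr6:155316199-155316448 on the plus strand with 28 CpG, and MFAP3L at chr4:170947547-170947796 on the minus strand with 37 CpG. NDRG2 lies at chr14:21494470-21494719 and H19 at chr11:2022497-2022746, both on the minus strand with 4 CpG each. All 4 starts lie within the longest gene model of GENCODE, so other start sites of these genes exist.
TIAM2: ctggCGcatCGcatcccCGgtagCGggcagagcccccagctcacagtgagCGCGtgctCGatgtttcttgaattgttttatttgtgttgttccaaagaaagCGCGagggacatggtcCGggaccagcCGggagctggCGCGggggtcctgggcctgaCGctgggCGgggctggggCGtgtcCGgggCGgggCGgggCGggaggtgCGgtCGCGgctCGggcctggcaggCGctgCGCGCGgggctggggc
MFAP3L: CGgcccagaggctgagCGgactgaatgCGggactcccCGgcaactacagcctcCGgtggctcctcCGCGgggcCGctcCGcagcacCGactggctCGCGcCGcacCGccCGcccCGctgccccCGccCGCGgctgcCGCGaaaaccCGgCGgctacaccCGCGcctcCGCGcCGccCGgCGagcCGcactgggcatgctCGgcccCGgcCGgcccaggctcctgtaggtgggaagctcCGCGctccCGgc
NDRG2: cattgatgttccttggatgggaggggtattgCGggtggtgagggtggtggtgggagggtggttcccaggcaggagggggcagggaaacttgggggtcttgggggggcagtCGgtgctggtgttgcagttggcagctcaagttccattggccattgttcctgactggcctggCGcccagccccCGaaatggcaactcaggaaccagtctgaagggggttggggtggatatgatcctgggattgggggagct
H19: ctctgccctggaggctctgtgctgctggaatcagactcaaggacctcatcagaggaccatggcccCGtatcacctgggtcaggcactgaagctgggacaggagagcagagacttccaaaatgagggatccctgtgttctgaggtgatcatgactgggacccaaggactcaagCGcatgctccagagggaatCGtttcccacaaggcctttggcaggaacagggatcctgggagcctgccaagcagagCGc

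ACTG2 encodes the gamma-actin of enteric smooth muscle, and muscle actin genes are known targets of serum response factor, which binds the CArG box. A CArG box (CC, 6 bases of A or T, GG) was found in 2 of the 42 member promoters (4.76%), those of ACTG2 and CAPN13, and in 1.09% of all listed genes. The promoter of ACTG2, at chr2:74119885-74120134 on the plus strand of GRCh37, held 2 of them, shown in capitals, which begin 110 and 73 bases before the start.
ACTG2: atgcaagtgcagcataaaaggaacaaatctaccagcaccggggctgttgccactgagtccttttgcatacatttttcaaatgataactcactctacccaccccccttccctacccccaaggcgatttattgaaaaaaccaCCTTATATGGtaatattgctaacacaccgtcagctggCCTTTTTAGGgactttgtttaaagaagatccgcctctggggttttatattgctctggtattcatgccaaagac
The sites are CCTTATATGG and CCTTTTTAGG, which match the letters of the motif and are no measurement of binding.

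Other motifs, searched on both strands, were rare in the members. The AP-1 letters TGANTCA were in 4 member promoters (9.52%), of PTN, LINC00460, DRICH1 and AADACL3, and in 5.57% of all. The TEAD letters GGAATG were in 4 (9.52%) and in 11.5% of all. TATAAA was in the promoters of ACTG2, outside the CArG boxes shown, and SRGAP3 (4.76%), and in 7.24% of all. The forkhead letters TGTTTAC were in that of CAPN13 alone (2.38%) and in 2.38% of all. With 42 promoters, 1 promoter is 2.38% of the set.

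**Figure D3:**
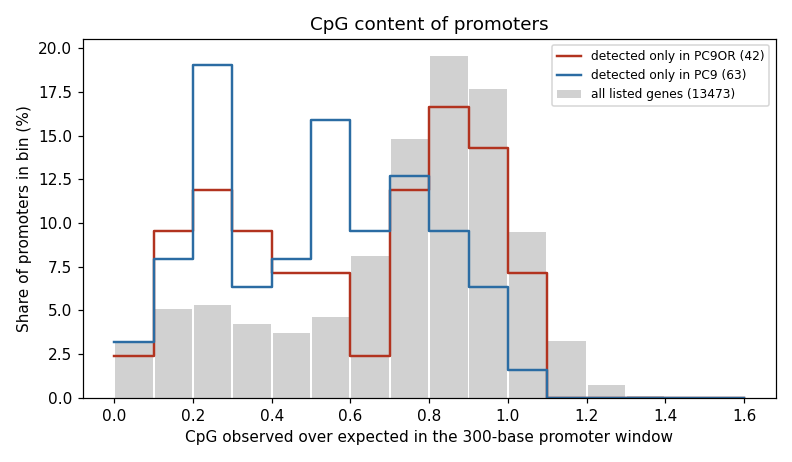
Share of promoters, in percent, by observed over expected CpG ratio of the 300-base window, in bins of 0.1. The red line (42 members) has one hill under 0.6 and another from 0.7 to 1.1, the blue line (63 genes detected only in PC9) lies mostly under 0.8, and the grey bars (13473 listed genes) peak from 0.7 to 1.0.

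Genes of the cytoskeleton and of small GTPase control held the strongest member. There were 7 of them, with means from 0.655 to 14.1 CPM in PC9OR, and 3 were listed in neither PC9 library. TIAM2 (chr6:155153831-155578857, plus strand), an exchange factor that loads the GTPase Rac1, had 14.1 CPM in each PC9OR library, from 451 and 455 counts, and none in PC9. Against a floor of 3 counts per PC9 library it was at least 121-fold higher. Its paralog TIAM1 was at 7.40 and 2.74 CPM in PC9 and 5.76 and 3.45 CPM in PC9OR, and did not pass the test (log2 fold change -0.13, edgeR adjusted p = 0.863). TIAM2 overlaps SCAF8 on the same strand over 1548 bases and 5.83% of its words were shared with other genes, although its counts were whole.

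SRGAP3, which turns Rac1 off, was a weak member, with 0.0862 and 0.0688 CPM in PC9 and 0.720 and 0.932 CPM in PC9OR. Its paralogs were abundant in PC9 and lower in PC9OR. SRGAP1 went from 113 and 62.8 CPM to 16.7 and 19.1 CPM (log2 fold change -2.29, edgeR adjusted p = 0.00912), and SRGAP2 from 76.8 and 50.01 CPM to 26.0 and 24.0 CPM (-1.34, edgeR adjusted p = 0.0136).

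ACTG2 (chr2:74119441-74146992) was the highest member per length, at 3.58 FPKM on average in PC9OR. It had 0.0862 and 0 CPM in PC9 and 6.85 and 5.62 CPM in PC9OR, a ratio of 163 in pooled counts (95% exact interval 44.8 to 1350.0, counting error only). The rule chose the members on these same counts, so this interval and those of other members are no test of a difference. The other muscle actins did not share this pattern, since ACTA1 reached at most 0.0862 CPM and ACTA2 at most 0.723 CPM, and both were too low to test. ACTG1, a cytoplasmic actin, was at 2105 to 2348 CPM in all 4 libraries (edgeR adjusted p = 0.883). ACTB, the other cytoplasmic actin, was lower in PC9OR, with 2349.6 and 2075 CPM against 6129.9 and 3678 CPM in PC9 (log2 fold change -1.14, edgeR adjusted p = 0.0254).

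Intermediate filament and microtubule genes were among the weaker members. SYNM, the filament protein synemin, was at 0 in PC9 and at 1.33 and 1.81 CPM in PC9OR, while its partner vimentin (VIM) lay between 11.8 and 14.8 CPM in all libraries. KRT9, a keratin of palm and sole skin, had 0.0862 and 0.0688 CPM in PC9 and 0.595 and 1.18 CPM in PC9OR. MAPT, the microtubule protein tau, had 0.0862 and 0 CPM in PC9 and 0.626 and 0.683 CPM in PC9OR. Its relative MAP2 moved the other way, from 12.6 and 10.9 CPM to 0.705 and 0.296 CPM (log2 fold change -4.50, edgeR adjusted p = 0.00547).

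IQCJ-SCHIP1 (chr3:158680024-159615418) is a read-through gene that joins IQCJ to SCHIP1. It was not listed in PC9 and was at 7.52 and 7.60 CPM in PC9OR. SCHIP1 itself, which lies inside it and shares 33.5% of its words, had 1.81 and 0.938 CPM in PC9 and 1.51 and 1.30 CPM in PC9OR (edgeR adjusted p = 0.937).

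Secreted proteins and enzymes of the matrix made up the largest role, with 10 members at means from 0.546 to 3.48 CPM. WNT11 (chr11:75897369-75921780), a ligand known mainly for non-canonical Wnt signalling, had 0.0431 and 0.0688 CPM in PC9 and 3.76 and 3.20 CPM in PC9OR, a ratio of 60.6 in pooled counts (95% exact interval 20.5 to 296). SEMA3D, a secreted semaphorin that guides axons and vessels, was at 0 in PC9 and at 3.32 and 2.98 CPM in PC9OR, at least 27.1-fold higher. The related SEMA3A, the nearest listed gene at a distance of 503 kb, showed the opposite pattern, with 7.41 and 9.32 CPM in PC9 and 0.0626 and 0 CPM in PC9OR (edgeR adjusted p = 0.00523). SEMA3E was lower too (log2 fold change -2.46, edgeR adjusted p = 0.00989), and SEMA3C, SEMA3B and SEMA3F did not pass the rule of more than 2-fold and adjusted p under 0.05.

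PTN, the heparin-binding growth factor pleiotrophin, had 0 and 0.0344 CPM in PC9 and 1.16 and 2.11 CPM in PC9OR. Its only close relative MDK (midkine) stayed between 31.6 and 39.7 CPM (edgeR adjusted p = 0.398). IGFBP5, which binds insulin-like growth factors, was near the cutoff with 0.532 and 0.559 CPM in PC9OR. Of the other binding proteins, IGFBP3 and IGFBP4 were lower in PC9OR and IGFBP1, IGFBP2 and IGFBP6 were not called. IGFBP6 was at 91.7 and 139.7 CPM in PC9 and 146.9 and 146.1 CPM in PC9OR (log2 fold change 0.34, edgeR adjusted p = 0.263). IGFBP4 went from 77.4 and 56.8 CPM to 3.41 and 3.54 CPM (log2 fold change -4.26, edgeR adjusted p = 0.00249), and IGFBP3 from 33.6 and 34.1 CPM to 9.45 and 9.25 CPM (-1.85, edgeR adjusted p = 0.00400).

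Of the 4 peptidases that are members, 3 act outside the cell or are secreted. ADAMTS17, a secreted metalloproteinase of the ADAMTS type, was at 0 in PC9 and at 2.13 and 2.11 CPM in PC9OR, at least 18.2-fold higher. MMP13, collagenase 3, had 0.0862 and 0.0688 CPM in PC9 and 1.41 and 1.52 CPM in PC9OR, a pooled ratio of 19.1 (95% exact interval 7.23 to 71.7). Within its gene cluster on chromosome 11, MMP1 was higher as well (log2 fold change 1.48, edgeR adjusted p = 0.0311), from 2.59 and 4.54 CPM to 8.67 and 11.3 CPM. MMP3, MMP7, MMP10 and MMP12 reached at most 0.895 CPM, and MMP8 was listed nowhere. PRSS35, a serine protease-like protein, was at 0 in PC9 and at 0.563 and 0.559 CPM in PC9OR. CST5, a secreted protease inhibitor, and HS3ST2, which sulfates heparan sulfate chains, had 0.532 to 0.720 CPM in PC9OR.

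Membrane proteins included 4 of the 7 strongest members. MFAP3L (chr4:170907748-170954182) was at 0 in PC9 and at 9.44 and 11.99 CPM in PC9OR, at least 92.2-fold higher, while its relative MFAP3 stayed at 70.5 to 81.0 CPM (edgeR adjusted p = 0.733). GABRE (chrX:151121596-151143152), the epsilon subunit of the GABA-A receptor, had 0 and 0.0344 CPM in PC9 and 9.81 and 7.35 CPM in PC9OR. With 1 count in PC9, its pooled ratio of 448 had a 95% exact interval of 80.1 to 17726. LRP3 (chr19:33668509-33699770), of the LDL receptor family, was at 0 in PC9 and at 5.73 and 4.35 CPM in PC9OR, at least 43.4-fold higher. PRRT4, a proline-rich transmembrane protein, was at 0 in PC9 and at 5.10 and 4.75 CPM in PC9OR.

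The remaining membrane proteins lay at the low end. KCNK2, the potassium channel TREK-1, had 0.0431 and 0 CPM in PC9 and 0.908 and 0.528 CPM in PC9OR. TMEM37, related to calcium channel gamma subunits, had 0.657 and 0.652 CPM in PC9OR. PKHD1, the ciliary protein fibrocystin, was at 0 in PC9 and at 0.908 and 1.68 CPM in PC9OR, and per length it was among the lowest members at 0.0650 FPKM. LY9, a receptor of lymphocytes, had 0 and 0.0344 CPM in PC9 and 1.31 and 0.901 CPM in PC9OR. NCMAP, a myelin protein, had 0.563 and 0.528 CPM.

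Metabolic genes held 8 members, 5 of them listed in neither PC9 library. CERS1 (chr19:18979354-19007536), a ceramide synthase known from brain and muscle, had 0 and 0.0688 CPM in PC9 and 4.51 and 3.77 CPM in PC9OR, a pooled ratio of 108 (95% exact interval 29.7 to 898). Among the other ceramide synthases, CERS4 showed a near copy of this pattern just outside the rule, with 0.0431 and 0.138 CPM in PC9 and 7.48 and 8.66 CPM in PC9OR (log2 fold change 6.36, edgeR adjusted p = 0.00453). CERS2, CERS5 and CERS6 were abundant in both lines and none passed the rule, with log2 fold changes from -0.50 to 0.10.

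CBS, which condenses homocysteine and serine in the first step of transsulfuration, was not listed in either PC9 library and was at 2.00 and 2.86 CPM in PC9OR. CTH, the enzyme of the next step, was higher in PC9OR, going from 12.5 and 15.4 CPM to 59.2 and 66.5 CPM (log2 fold change 2.17, edgeR adjusted p = 0.00445). SURF1, an assembly factor of cytochrome c oxidase, was not listed in PC9 and was at 1.68 and 1.25 CPM in PC9OR. It overlaps SURF2 by 127 bases, and SURF2 was at 8.53 to 15.5 CPM across the libraries. CBS and SURF1, like DCAF1 and TEP1, are used by many cell types, and the absence of such a gene from a file can be a failed estimate, so no fold is given for them.

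THNSL2 (chr2:88469814-88486155), a threonine synthase-like protein, was at 0 in PC9 and at 3.68 and 4.22 CPM in PC9OR, at least 34.0-fold higher. SLC25A29, a mitochondrial carrier of basic amino acids, had 0.0862 and 0.0547 CPM in PC9 and 0.614 and 0.881 CPM in PC9OR. MTMR8, a myotubularin-related phosphoinositide phosphatase, had 0.632 and 1.599 CPM in PC9OR, and its libraries differed by 2.53-fold. PADI6, a peptidylarginine deiminase of the egg cell, was at 0 in PC9 and at 1.13 and 0.807 CPM in PC9OR. The next gene on chromosome 1, PADI4, was higher as well, with 24.6 and 21.1 CPM in PC9 and 51.7 and 51.6 CPM in PC9OR (log2 fold change 1.18, edgeR adjusted p = 0.00638).

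Nuclear proteins held 7 members, 5 of them listed in neither PC9 library. CDKN1C, the cyclin-dependent kinase inhibitor p57, had 0.0431 and 0 CPM in PC9 and 1.41 and 0.589 CPM in PC9OR, with 2.39-fold between the PC9OR libraries. The related CDKN1A (p21) was lower in PC9OR (log2 fold change -1.23, edgeR adjusted p = 0.0166), and CDKN1B (p27) had a log2 fold change of 0.89, under the 2-fold limit. FOXA2, a forkhead factor of lung and gut endoderm, was at 0 in PC9 and at 0.689 and 0.776 CPM in PC9OR. Its paralog FOXA1 was at 54.2 and 42.6 CPM in PC9 and 40.8 and 34.1 CPM in PC9OR (edgeR adjusted p = 0.138).

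ZNF467, a zinc finger protein, had 0.876 and 1.09 CPM in PC9OR and 0.0862 and 0 CPM in PC9. KRABD5, a KRAB domain protein, had 1.67 and 1.27 CPM in PC9OR and was at 0 in PC9. DCAF1, a substrate receptor of a cullin ubiquitin ligase, was not listed in PC9 and was at 4.15 and 2.13 CPM in PC9OR. TEP1, a protein bound to telomerase RNA and to vaults, was not listed in PC9 and was at 2.75 and 1.45 CPM in PC9OR. In both, replicate 1 was nearly 2-fold above replicate 2, with ratios of 1.95 and 1.90. RDM1, a RAD52 motif protein, had 0.657 and 0.679 CPM in PC9OR.

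Other intracellular proteins had means from 0.527 to 2.71 CPM. NDRG2, known as a stress-responsive and growth-restraining gene, was at 0 in PC9 and at 2.66 and 2.76 CPM in PC9OR, at least 23.3-fold higher, and its relatives NDRG1, NDRG3 and NDRG4 did not pass the rule. STXBP6, which binds SNARE proteins of vesicle fusion, had 0 and 0.0688 CPM in PC9 and 3.19 and 0.855 CPM in PC9OR. Its 3.72-fold gap was the widest between the PC9OR libraries among the members. CAPN13, a calpain protease, had 0.0862 and 0.0344 CPM in PC9 and 2.03 and 1.68 CPM in PC9OR. NCALD, a neuronal calcium sensor, had the same 2 values in PC9 and 1.38 and 2.02 CPM in PC9OR. Its relative VSNL1 was higher in PC9OR as well, at 0.595 and 0.963 CPM against 0.0862 and 0.138 CPM (log2 fold change 2.73, edgeR adjusted p = 0.0280).

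CAGE1, described as a cancer and testis antigen, had 0.970 and 0.985 CPM in PC9OR. It lies on the same strand as SSR1 with an overlap of 20791 bases of gene model, and SSR1 was at 123 to 209 CPM. LNX1, a ubiquitin ligase that binds NUMB, had 0.970 and 0.714 CPM in PC9OR. KLHDC9 and DRICH1 had 0.578 to 0.787 CPM in PC9OR.

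Non-coding transcripts made up 9 of the 59 members (15.3%), against 16.7% of the 84 genes detected only in PC9, 10.4% of all listed genes and 3.33% of the genes at 0.5 CPM or more in all 4 libraries. COX10-DT, transcribed away from COX10, was the highest, at 0 in PC9 and at 1.32 and 1.92 CPM in PC9OR. H19, an imprinted RNA that is abundant in the fetus, was at 0 in PC9 and at 0.817 and 0.930 CPM in PC9OR. CEBPA-DT, a divergent transcript at CEBPA, had 0.0293 and 0.0609 CPM in PC9 and 0.749 and 1.05 CPM in PC9OR. LINC00460 was at 0 in PC9 and at 0.675 and 0.727 CPM in PC9OR. TBC1D8-AS1 had 0.665 and 0.581 CPM and HOMER3-AS1 0.561 and 0.615 CPM in PC9OR, and both lie antisense to genes that were present in all libraries. TBC1D8 was at 30.6 to 50.6 CPM, and HOMER3 at 28.9 to 55.7 CPM. The strand setting of the counting is not stated, so reads of a gene and its antisense partner may not be told apart. GLIDR and a transcript known here only by Entrez ID 400706, for which no symbol or position was found, were at 0 in PC9.

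The families around the members were compared next, since non-members can be tested. Across the 13148 genes tested, 806 (6.13%) were called higher in PC9OR and 1523 (11.6%) lower, by more than 2-fold and an adjusted p under 0.05 in the quasi-likelihood test of edgeR, adjusted by Benjamini-Hochberg over all genes. The count of higher genes was 1331 without PC9 replicate 2, 477 without PC9OR replicate 1 and 493 without PC9OR replicate 2. Of 21 families defined by symbol, 9 held a member, 19 members fell in a family and 40 in none. All 59 members passed the filter on low counts, but the rule itself required counts in PC9OR. The members count in the shares over all genes, while the shares of families and neighbours leave them out. A non-member near 0 in 1 line passed this filter through the other line alone, which set the direction of its call.

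Keratins and peptidases had the largest shares of tested relatives called higher among these 9 families. Of 21 keratins, 6 were higher (28.6%) and 6 lower, and the median log2 fold change was 0.61, against 0.01 over all genes. KRT15, a basal keratin, went from 3.99 and 2.64 CPM to 42.6 and 49.2 CPM (log2 fold change 3.80, edgeR adjusted p = 0.00351), and KRT16 from 7.24 and 8.19 CPM to 38.3 and 32.7 CPM (2.205, edgeR adjusted p = 0.00430). KRT23 went from 17.0 and 18.0 CPM to 0.188 and 0 CPM (edgeR adjusted p = 0.00579), and KRT5 was lower by a log2 fold change of -3.75 (edgeR adjusted p = 0.00190). KRT13 was higher and KRT75 lower.

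Of 90 peptidases and serpins, 16 were higher (17.8%) and 15 lower (16.7%). MMP9, gelatinase B, went from 0.517 and 0.379 CPM to 7.42 and 5.68 CPM (log2 fold change 3.87, edgeR adjusted p = 0.00529). PRSS36 and MMP11 were higher by 3.30 and 3.16 on the same scale. ADAMTS9, a relative of ADAMTS17, was lower, from 122 and 98.2 CPM to 9.54 and 9.83 CPM (-3.50, edgeR adjusted p = 0.00249), and so were SERPINB2 and MMP24, the latter not listed in PC9OR.

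Among 100 tested ligands, 9 were higher (9%) and 29 lower (29.0%), with a median log2 fold change of -0.55. NTN1, the guidance cue netrin-1, came close to the rule, with 0.172 and 0 CPM in PC9 and 17.6 and 14.8 CPM in PC9OR (edgeR adjusted p = 0.00547). Further Wnt ligands were higher beside WNT11, namely WNT6 (log2 fold change 4.62, edgeR adjusted p = 0.00605) and WNT9A (3.72, edgeR adjusted p = 0.00531). WNT5B was lower, from 5.56 and 8.57 CPM to 0 and 0.0621 CPM (edgeR adjusted p = 0.00601), and TNFSF13 was not listed in PC9OR after 1.35 and 1.45 CPM in PC9.

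Ion channel subunits, the family of GABRE and KCNK2, had 10 of 79 higher (12.7%) and 18 lower (22.8%). P2RX6, an ATP-gated channel, went from 0.690 and 0.379 CPM to 7.42 and 6.02 CPM (log2 fold change 3.67, edgeR adjusted p = 0.00658), and CACNG4 from 1.64 and 1.17 CPM to 13.4 and 14.1 CPM (3.30, edgeR adjusted p = 0.00457). ASIC1 was higher as well, while TRPM2, GABRR2 and CACNA2D4 were listed in PC9 alone, at 0.517 to 0.849 CPM. In the LDL receptor family of LRP3, SORL1 was higher (1.26, edgeR adjusted p = 0.00659) and LRP1, LRP8 and VLDLR were lower, with log2 fold changes from -2.12 to -1.46, of 12 tested.

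Among SOX, FOX, GATA and T-box factors, 2 of 34 were higher and 11 lower (32.4%). SOX2, a factor of stem and airway cells, was at 0.129 and 0.0344 CPM in PC9 and 0.563 and 0.963 CPM in PC9OR (log2 fold change 3.23, edgeR adjusted p = 0.0315), and FOXJ1 was the other. SOX9 was lower, from 92.1 and 64.2 CPM to 21.97 and 18.04 CPM (-1.96, edgeR adjusted p = 0.00666), as were SOX7 and GATA3. Zinc finger genes, solute carriers and long non-coding transcripts had 4.32%, 6.37% and 6.67% of tested relatives higher, near the background of 6.13%. ZNF354C went from 0.259 and 0.0688 CPM to 13.3 and 12.999 CPM (6.37, edgeR adjusted p = 0.00453), and ZNF560 and ZNF879 were listed in PC9OR alone, at 0.376 to 0.621 CPM. ZNF90 and ZNF732 were lower, and so was ZNF257, from 4.96 and 4.27 CPM to 0.0313 and 0.0311 CPM. SLC29A4 was higher by a log2 fold change of 3.11, and SLC44A4 was listed in PC9 alone, at 5.59 and 4.23 CPM. SLCO1A2 and SLC43A1 were listed in PC9OR alone, at 0.344 to 0.689 CPM, and SLC6A14 was lower. SLC16A7 fell from 69.5 and 60.6 CPM to 0.751 and 0.901 CPM (-6.28, edgeR adjusted p = 0.00155).

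Among the long non-coding transcripts, LOC100996664, LINC01127 and IL12A-AS1 were called higher and missed the rule with at most 0.416 CPM in PC9OR replicate 1. LOC105371703, SH3BP5-AS1 and LINC00960 were listed in PC9 alone, at 1.58 to 7.01 CPM.

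**Figure D4:**
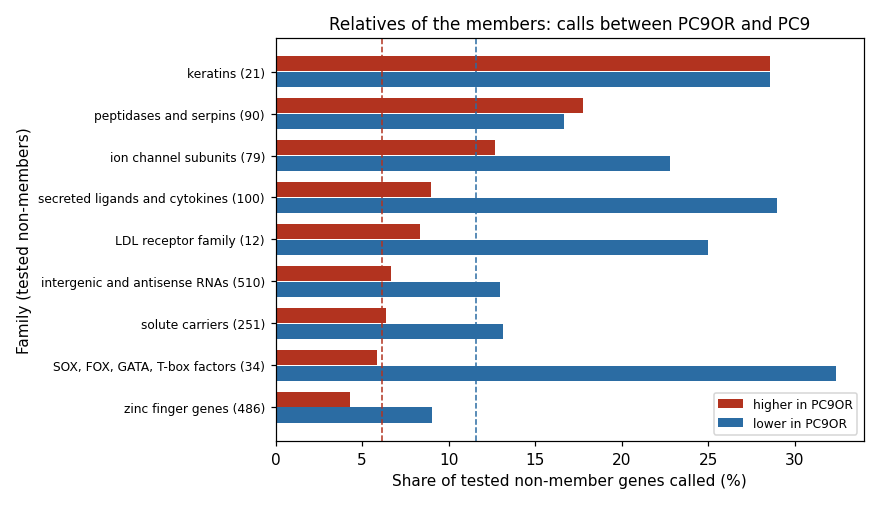
Share of tested non-member genes called higher (red) or lower (blue) in PC9OR, in percent, for the 9 families with a member, with the number tested in brackets. Dashed lines mark the shares over all genes, 6.13% higher and 11.6% lower. The keratins have the largest share called higher (28.6%), and the SOX, FOX, GATA and T-box factors the largest share called lower (32.4%).

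Close relatives of 23 members, a list of paralogs and partners of which only some are named above, came to 73 genes. Of these, 62 were listed and 51 tested. There were 6 called higher (11.8%) and 12 lower (23.5%), against 6.13% and 11.6% over all genes tested. CERS4, CTH, MMP1, PADI4 and VSNL1 were among the 6. Besides those already named, HS3ST1 was lower among the relatives, from 27.8 and 27.4 CPM to 8.76 and 6.49 CPM (log2 fold change -1.85, edgeR adjusted p = 0.00631), and MAP4 by -1.40 (edgeR adjusted p = 0.0304).

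The members were scattered over the genome. The 58 with a position in GRCh37 lay on 19 chromosomes, with 6 each on chromosomes 1 and 2, 5 each on chromosomes 17 and 19, and none on chromosomes 5, 10, 12 and 18. Neighbours within 1 Mb formed 6 runs that held 13 members.

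H19 and CDKN1C lie 879 kb apart in the imprinted region at the end of chromosome 11 (chr11:2016396-2907005), where each is expressed from the maternal copy. Between them 4 genes were tested, of which 2 were lower and none higher. KCNQ1OT1, an antisense RNA made from the paternal copy, went from 318 and 169 CPM to 59.3 and 60.2 CPM (log2 fold change -2.02, edgeR adjusted p = 0.0115). CD81, a tetraspanin, went from 167 and 100.1 CPM to 31.7 and 31.9 CPM (-2.06, edgeR adjusted p = 0.00826). TH, at 0 and 0.246 CPM in PC9 and 0.949 and 1.13 CPM in PC9OR, was not called (2.96, edgeR adjusted p = 0.0751). Within 500 kb of H19, on either side, 9 genes were tested, of which 1 was called higher and 2 lower. IGF2, the imprinted growth factor next to H19, was at 0.345 and 0.0688 CPM in PC9 and 0 and 0.0621 CPM in PC9OR, too low to test.

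LRP3 and CEBPA-DT lie on chromosome 19 (chr19:33668509-33795960), and the single listed gene between them was higher as well. CEBPA, a transcription factor of lung and myeloid differentiation, went from 4.83 and 5.92 CPM to 13.3 and 14.2 CPM (log2 fold change 1.36, edgeR adjusted p = 0.0114). The gene models of CEBPA-DT and CEBPA lie 0.322 kb apart. On the other side of LRP3, GPATCH1 had a log2 fold change of 0.26 (edgeR adjusted p = 0.236).

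CERS1 and HOMER3-AS1 also lie near each other on chromosome 19. Beside CERS1, COPE had a log2 fold change of 0.55 and UPF1, 0.314 kb away, of -0.30 (edgeR adjusted p = 0.157), and neither was called. LY9 and KLHDC9 on chromosome 1 had TSTD1 between them, which was higher (2.55, edgeR adjusted p = 0.00846), and 3 other tested genes that were not called. TEP1 and NDRG2 on chromosome 14 had ANG and RNASE4, a pair of ribonuclease genes, higher between them at 2.40 and 2.81 (edgeR adjusted p = 0.0294 and 0.0290) among 8 tested. SYNM and ADAMTS17 on chromosome 15 had 4 tested genes between them, of which none was called.

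The nearest listed genes of the strongest members mostly did not pass the rule of more than 2-fold and adjusted p under 0.05. CNKSR3 and ARID1B beside TIAM2, AADAT beside MFAP3L, STAMBP and DGUOK beside ACTG2, RBM28 and IMPDH1 beside PRRT4, KRCC1 beside THNSL2, UVRAG and THAP12 beside WNT11, and MFSD1 beside IQCJ-SCHIP1 had log2 fold changes from -0.83 to 0.90 and were not called. LINC02275, MAGEA5P and SPMIP9, the other nearest genes, were too low to test. Genes that overlap a member were not counted as nearest, and CNKSR3 and ARID1B lie 322 and 1518 kb from TIAM2. SCAF8, which overlaps TIAM2, was called lower (log2 fold change -1.11). It was at 97.6 and 79.4 CPM in PC9 and 41.7 and 39.7 CPM in PC9OR. TFB1M, which also overlaps TIAM2, was not called (0.09). MAGEA4, a cancer-testis antigen gene 28.0 kb from GABRE, was higher by a log2 fold change of 1.06 (edgeR adjusted p = 0.0143). IL12A-AS1, 4.42 kb beyond IQCJ-SCHIP1, was at 0 in PC9 and at 0.383 and 0.404 CPM in PC9OR (edgeR adjusted p = 0.0253). It passed the filter on low counts through PC9OR alone, so the direction of its call was set in advance. Over all members, 9 of the 89 tested nearest genes were called higher (10.1%) and 8 lower (8.99%), against 6.13% and 11.6% over all genes.

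Within 500 kb of a member 394 genes were tested, of which 45 were called higher (11.4%) and 34 lower (8.63%), with a median log2 fold change of 0.14. Read against the background, the share of higher genes was above 6.13% and the share of lower genes under 11.6%. That background holds the 59 members, which the counts near members leave out. Calls of higher genes occurred near 25 of the 56 members with a tested gene in the window, and calls of lower genes near 23. The windows held from 1 to 27 tested genes each. How many would hold a call from the background alone was not worked out, so nothing is read from these 2 counts. Around DRICH1 on chromosome 22, 9 of 10 tested genes were called higher, ZNF70 among them (log2 fold change 2.03, edgeR adjusted p = 0.00584). Without its neighbours, a comparison chosen after seeing the data, 36 of 384 were higher (9.38%). Genes of neighbouring members share windows, so these counts are a description.

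**Figure D5:**
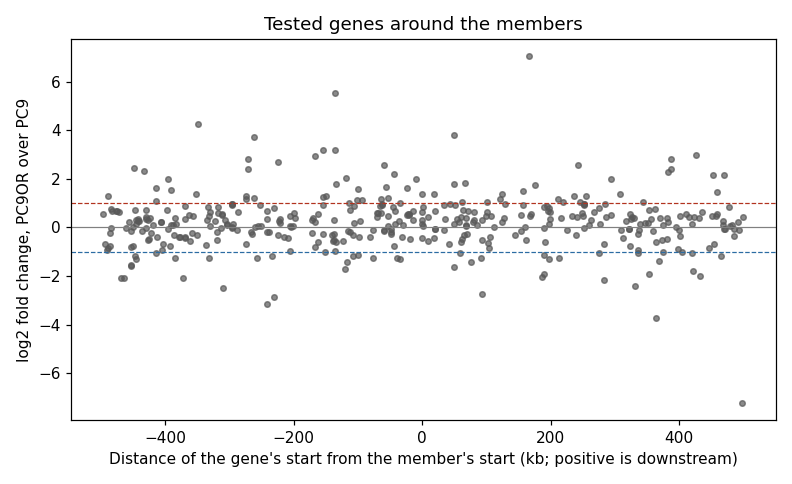
Log2 fold change of PC9OR over PC9 for each tested non-member against the distance of its start from the start of a member, in kb, positive downstream of the member. Points are genes, dashed lines mark 2-fold up and down, and most points lie between them at every distance.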

How the data were processed

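Per the labels, RNA was extracted with TRIzol and libraries were made with a TruSeq Stranded kit. The submitters' processing notes name Bowtie2 2.2.5, RSEM 1.2.12 and GRCh37, and the study's methods name 100-base reads on an Illumina HiSeq. The strand setting of the counting is not given in the sources used here. The deposited files give, per Entrez gene, an expected count and FPKM (fragments scaled by transcript length and library size) that the authors computed with RSEM, and list only genes with an FPKM of at least 0.005 before rounding to 2 decimals. A gene that is not listed was set to 0, which could hide at most 2.55 counts of a member. CPM was computed here from the sum of the expected counts. Depth ran from 23201307 to 32203998 expected counts, and intervals and floors cover counting error only.

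Non-members were tested with edgeR 4.0.16 in R 4.3.3 (quasi-likelihood test, TMM scaling, filterByExpr) on expected counts rounded to whole numbers, with Benjamini-Hochberg adjustment over 13148 genes, and called at more than 2-fold and an adjusted p under 0.05. The script was tested on simulated data. DESeq2 1.42.0 was an alternative. The p-values measure the spread between 2 replicates a line, which the labels call biological. Replicates differed by more than sampling noise, with a chi-square per degree of freedom of 65.5 in PC9 and 9.93 in PC9OR. The replicate numbers did not pair the libraries in the labels.

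Symbols were found by gene ID for 16755 genes and by accession for 15, and 43 had none. The results of 1 member are not reported here. Positions and shared words come from GENCODE in GRCh37. The members and all lists were chosen with earlier results of these data known. Named members were the 20 of highest mean CPM in PC9OR, up to 4 per family or run, the 5 nearest inside each cutoff and the 3 nearest outside. Named relatives were up to 3 called in each direction per family, and the nearest listed genes of the 10 strongest members. The further members and relatives were named for their role after their values were seen.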

Additional observations from a re-analysis of the deposited data

How the results depend on the processing

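The number of members depended on the cutoffs and on the measure (CPM or FPKM), and little on the scaling of library sizes. It was 59 as reported, 60 with TMM library sizes (PCDHGA11 added) and 58 with DESeq2 size factors. It was 26 at 1 CPM in both PC9OR libraries, 29 with no count in PC9, 98 under 0.2 CPM in PC9, and 37 with the same cutoffs on FPKM, of which 19 were shared. Leaving out 1 library gave 87 to 125. Restricting to whole-number counts, chosen after seeing the data, left 29. Genes called higher numbered 806, and 477 to 1331 with 1 library left out, where the lone library is assumed to vary like the other line. Genes called lower numbered 1523, and 1169 to 2000. At an adjusted p under 0.001 edgeR called 0 in either direction, with 6653 genes at an unadjusted p under 0.05, while the Wald test of DESeq2 found 502 higher and 1227 lower. Blocking on the replicate number gave 889 and 1560. Same-numbered libraries deviated together by a correlation of only 0.0553 across 13148 genes. With 2 replicates a line, this check cannot tell whether same-numbered libraries shared a batch that touched some genes. DESeq2 size factors, library totals, no filter and DESeq2's Wald test gave 761 to 805 higher and 1447 to 1562 lower. Calls among relatives in families (113 higher, 225 lower), close relatives (6 and 12) and genes within 500 kb (45 and 34) stayed within 1.5 times under DESeq2 and the block, recounts that for the last 2 groups were chosen after seeing the data. The mean of TIAM2, 14.1 CPM, was 14.2 CPM with TMM sizes, more than 1 SD of its replicates away. Depth limits the list: most members rest on few reads, and a member at 0 in PC9 is bounded only at 3 counts per library.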
